A study of Mus musculus with 6 samples.

Results

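The colony-stimulating factors and their receptors are described here as 8 genes of the 31053 in the deposited table. They were chosen by name and are the ligand genes Csf1, Csf2, Csf3 and Il34 and the receptor genes Csf1r, Csf2ra, Csf2rb and Csf3r. All 8 were found in the table and had at least 1 UMI, as had 23764 genes in all. Single-cell mRNA-seq had been performed on CD45+ bead-enriched TILs of CT26 tumors, grown from a mouse colorectal carcinoma line in Balb/c mice. The sample labels list 6 tumors in 3 treatment groups of 2, namely vehicle and 2 dose levels of a PD-1 GITR-L bispecific antibody. The low dose is 10 mg/kg in the labels' protocol but 30 mg/kg in their treatment field, whereas the high dose is 30 mg/kg in both. The deposited cells came from 4 libraries, M1, M2, M5 and M6, which could not be matched to these groups, so no treated library was compared with a control.

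CSF-1 and IL-34 are alternative ligands of 1 receptor tyrosine kinase, CSF-1R, through which monocytes, macrophages and tissue-resident phagocytes survive and differentiate. GM-CSF, the product of Csf2, binds an alpha chain of its own and signals through the beta common chain that it shares with IL-3 and IL-5, while G-CSF, the product of Csf3, drives neutrophil production through a homodimeric receptor. In tumors, CSF-1 is best known for sustaining tumor-associated macrophages, and GM-CSF as a product of activated lymphocytes and of many carcinoma lines.

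The 4 libraries held 33961 cells with 7160 to 10294 cells each, 158337797 to 315577167 UMIs each and a median of 11399 to 21800.5 UMIs per cell, and 111 of the 33850 different barcodes occurred in 2 or more libraries. Each cell carries 1 of 12 cell type labels that the authors assigned by correlation with reference profiles of immune cells. Levels are counts per 1000000 UMIs (CPM), taken over all cells with the same label together, in the order M1, M2, M5 and M6 where 4 values are listed. Intervals are exact 95% Poisson or binomial intervals and cover counting error only. Despite the CD45 selection, the label Stroma was given to 15687 cells and held 75.6% of all UMIs. The CD45 gene Ptprc was at 7.47 CPM in Stroma against 584 in Myeloid and 724 in T cell EFF. In Stroma, the collagen gene Col1a2 was at 681 CPM and the epithelial gene Epcam at 1.70 CPM. These genes alone do not tell CT26 tumor cells from host cells. Which of them the Stroma label held was not tested. The Myeloid label held transcripts of more than 1 lineage, with Lyz2 at 6633 CPM, the macrophage gene C1qa at 1034, the neutrophil gene S100a8 at 398 and the mast cell gene Cpa3 at 260. In DC, the dendritic cell gene Xcr1 was at 181 CPM. How many cells of a type a tumor held and how much RNA a cell held cannot be told apart from summed levels.

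The ligand transcripts differ in the sequence ATTTA, the core of the AU-rich elements that mark short-lived cytokine mRNAs. In GENCODE M21 annotation of GRCm38, the 3' UTR of Csf2 holds 9 copies in 317 bases. Csf3 has 6 copies in 669 bases, Csf1 has 4 in 2111 bases and Il34 has 1 in 605 bases. The 3' UTRs of Csf2ra, Csf2rb and Csf3r hold none, and that of Csf1r was not analysed here. The longest run of overlapping copies in Csf2 is printed with 1 copy each from Csf3 and Csf1, as the sequences by which the ligands differ, with ATTTA in capitals.

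Csf2 (chr11:54247325-54247353, minus strand, 5 overlapping copies): aaatATTTATTTATTTATTTATTTAtttt

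Csf3 (chr11:98702988-98703000, plus strand): gtttATTTAtctc

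Csf1 (chr3:107742918-107742930, minus strand): cactATTTAttgt

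The 4 ligands divided into 3 that were highest in Stroma and 1 that was highest in Myeloid. Csf1 and Il34 were highest in Stroma in all 4 libraries and Csf2 in 3, the exception being T cell EFF in M6. Csf3, the G-CSF gene, was highest in Myeloid in all 4. Of the receptors, Csf1r and Csf3r were highest in Myeloid and Csf2rb in DC in every library, whereas Csf2ra was highest in Myeloid in 2 libraries and otherwise in DC. Among the 15358 genes with at least 100 UMIs, 23.5% were highest in 1 and the same label in all 4 libraries, 11.9% in Stroma, 4.11% in Myeloid and 2.73% in DC.

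**Figure D1:**
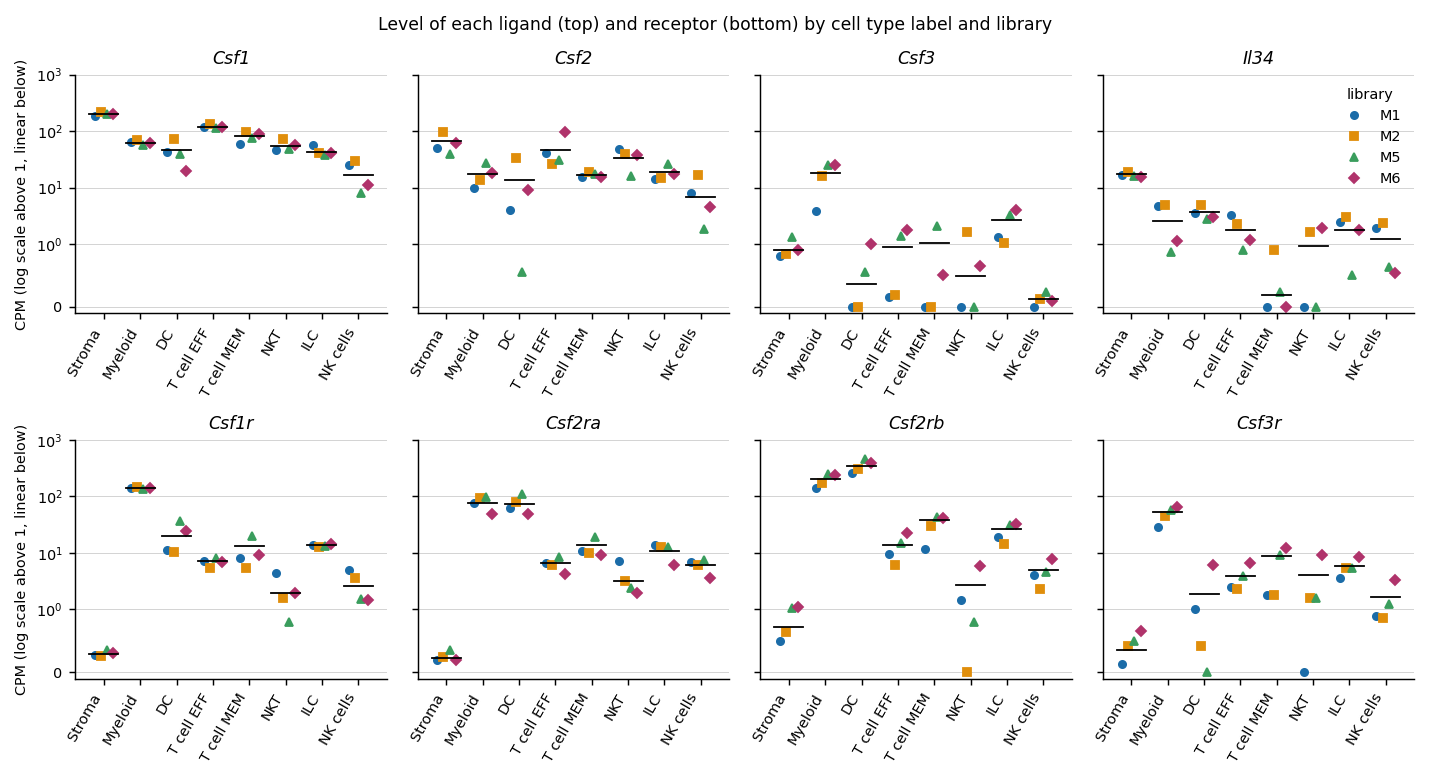
Level of each gene in CPM (vertical axis, logarithmic above 1 and linear below) in 8 cell type labels, with 1 point per library. The ligands fill the top row and the receptors the bottom row. Csf1 and Il34 are highest in Stroma in all 4 libraries, and Csf1r in Myeloid at 134 to 145 CPM.

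Csf1 was detected in every label with over 1000 cells, at levels that differed between labels. In Stroma it was at 182, 219, 197 and 200 CPM, or 198.7 pooled. In T cell EFF, the effector T cell label, it was at 116, 134, 114 and 119.9 CPM. These ranges did not overlap with each other, and the pooled Stroma level was 1.66 times that of T cell EFF. In T cell MEM, the memory T cell label, Csf1 was at 59.6, 97.9, 76.5 and 87.1 CPM, and in Myeloid at 64.0, 68.7, 55.9 and 61.0 CPM. T cell MEM and Myeloid overlapped, and both lay below every T cell EFF library. NK cells had 25.5, 29.2, 8.16 and 10.9 CPM, all below the lowest ILC library at 37.2 CPM.

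The order of Csf1 among T cell EFF, T cell MEM, NKT, ILC and NK cells was also seen at equal depth. At 2000 UMIs per cell, Csf1 was seen in 20.6% of T cell EFF (interval 19.3 to 22.0), compared with 13.6% of T cell MEM, 8.42% of NKT and 4.45% of ILC. Of NK cells, 1.73% did (interval 1.36 to 2.17). In Stroma the share was 30.3% (interval 29.6 to 31.1). Unthinned, 56.5% of T cell EFF cells (median depth 10049 UMIs) and 87.4% of Stroma cells (median depth 40692 UMIs) carried Csf1. NK cells, the label with the lowest share among these, had a median depth of 5397 UMIs. The collagen gene Col1a2, taken as a mark of Stroma transcripts elsewhere, was at 78.6 CPM in T cell EFF and 82.5 in Myeloid against 681 in Stroma. Csf1 in T cell EFF thus stood at 0.604 of its Stroma level and in Myeloid at 0.312. The part that free RNA had in these levels was not tested.

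Csf2 was found in the same labels but was spread far more unevenly. In Stroma it was at 49.4, 98.2, 39.0 and 62.1 CPM, and in T cell EFF at 41.4, 26.1, 30.6 and 95.8 CPM. The ranges overlapped. M2 was the highest Stroma library and M6 the highest T cell EFF library. The M6 value fell to 79.7 CPM without the 1 cell that held 190 Csf2 UMIs, and the pooled T cell EFF level of 46.8 CPM was 32.6 without M6. In T cell MEM, Csf2 was at 15.6, 19.03, 17.6 and 15.2 CPM, below every T cell EFF library. NKT had 49.0, 38.9, 15.98 and 37.5 CPM, and NK cells 1.82 to 17.0 with a median of 6.22. The NKT values also rested on few cells, and without the 1 cell with the most Csf2 in each library they were 21.6, 6.49, 7.19 and 23.95 CPM. The Myeloid range was 9.66 to 27.0 CPM, and its highest library, M5, had 185 of 245 UMIs in 1 cell and was at 6.61 CPM without it.

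After thinning, 7.61% of Stroma cells carried a Csf2 UMI (interval 7.20 to 8.04) and 3.92% of T cell EFF cells (interval 3.31 to 4.61). The lowest share among labels with over 1000 cells was 0.640% in NK cells. Without thinning the shares were 26.1% in Stroma and 11.4% in T cell EFF. The 36 T cell EFF cells with the most Csf2, the top 1% of the label, held 55.6% of its Csf2 UMIs. For Csf1 the top 1% of T cell EFF cells held 14.5%. In Stroma, the top 1% of cells held 26.3% of Csf2 UMIs, 6.43% of Csf1 UMIs and 8.59% of Il34 UMIs. The top 1% of cells thus held a larger share of Csf2 than of Csf1 in both labels, and than of Il34 in Stroma.

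**Figure D2:**
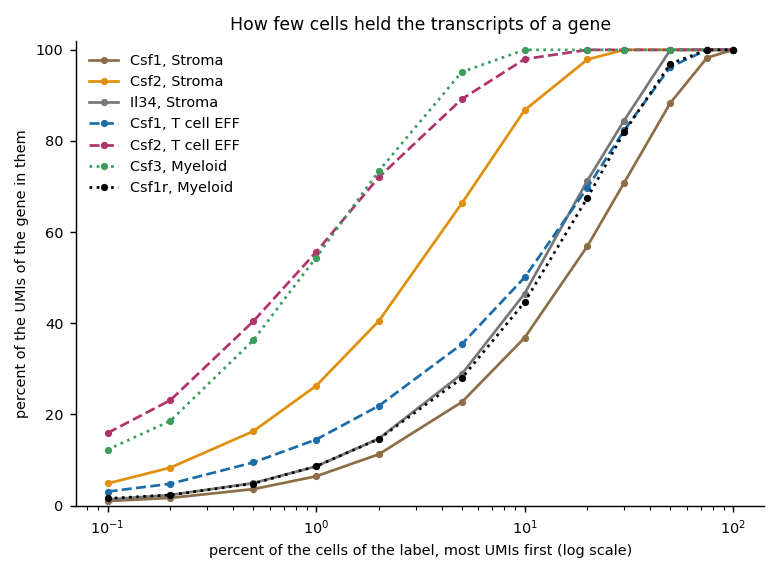
Cumulative percent of the UMIs of a gene (vertical axis) held by the cells of a label with the most UMIs of it (horizontal axis, percent of cells, logarithmic), 1 line per gene and label, libraries pooled. At 1% of cells, Csf2 in T cell EFF and Csf3 in Myeloid are at 55.6% and 54.4%, and Csf1 in Stroma at 6.43%.

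Csf2 in effector T cells was compared with other transcripts of the same cells, after thinning to 2000 UMIs. Of 101 cells with a UMI of Ccl1, a chemokine gene of activated T cells, 22 also carried Csf2, or 21.8% (interval 14.2 to 31.1). Of cells without Ccl1, 3.40% did. The share was higher with Ccl1 in each library, at 8.33% against 4.10%, 17.6% against 2.16%, 30.3% against 2.74% and 20.5% against 4.94%. With Ccl1 these were 1 of 12, 3 of 17, 10 of 33 and 8 of 39 cells, and the intervals with and without Ccl1 overlapped in M1 (0.211 to 38.5 with it). It was 8.49% with and 3.28% without Xcl1, the ligand gene of the dendritic cell receptor XCR1. With and without Ifng, the interferon gamma gene, it was 6.61% and 2.97%. Both were higher with the gene in each library, but the intervals overlapped in M1, M2 and M6 for Xcl1 and in M1, M2 and M5 for Ifng. With and without Ccl4 it was 4.42% and 3.77%, and with and without Tnf 5.29% and 3.84%, both with overlapping intervals. With and without Ccl3 it was 6.83% and 3.49%, but the intervals overlapped in M1, M2 and M5. With Il2 it was 21.4%, in 3 of 14 cells (interval 4.66 to 50.8), and without Il2 3.85% (interval 3.24 to 4.54). Of 3 cells with Il3, 1 carried Csf2. Unlike the other genes named here, Ccl1 was not among those first planned for this comparison. In ILC the share was 8.82% with Ccl1 and 1.96% without, with overlapping intervals. Median depths were 13726 UMIs for cells with Ccl1 and 10182.5 for cells without it before thinning.

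The targets of the bispecific, PD-1 and GITR, are encoded by Pdcd1 and Tnfrsf18. Csf2 was seen in 2.94% of T cell EFF cells with a Pdcd1 UMI (interval 2.28 to 3.73) and in those without at 5.60% (interval 4.42 to 6.99). The share was lower with Pdcd1 in all 4 libraries, at 2.64% against 7.25%, 2.42% against 2.58%, 2.74% against 4.82% and 4.36% against 7.26%, but the intervals overlapped in M2, M5 and M6. In T cell MEM the share was 1.90% with Pdcd1 and 1.46% without, and in NKT 4.47% and 2.25%, with overlapping intervals in both labels. The Csf2 level did not follow in every library. In T cell EFF it was 24.2, 31.6, 23.0 and 102.2 CPM with Pdcd1 and 62.5, 16.01, 40.8 and 90.3 CPM without. With Tnfrsf18 the share was 4.32% and without it 3.53%, with overlapping intervals. The 115 T cell EFF cells with a Cd4 UMI had 89.8 CPM of Csf2 (interval 76.2 to 105), and those without had 45.4 CPM. The 36 T cell EFF cells with the most Csf2 held 55.6% of its UMIs, so a few cells can set both levels. The interval does not cover this. Within NKT, the 172 cells with Foxp3, the regulatory T cell factor, had 4.05 CPM of Csf2 from 4 UMIs, compared with 43.6 CPM in the 541 cells without it. Of the 136 Csf2 UMIs in NKT, 75.7% were in 8 cells, so the level without Foxp3 rests on few cells. These splits of T cell EFF were chosen after values had been seen.

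Stroma was the label with most of the Csf1, Csf2 and Il34 transcripts captured. It held 90.9% of Csf1 UMIs, 89.9% of Csf2 UMIs and 96.7% of Il34 UMIs, against 75.6% of all UMIs. T cell EFF held 4.17% of Csf1 and 4.86% of Csf2 UMIs. By library, Stroma held 93.4, 96.4, 71.3 and 78.3% of Csf2. Csf3 was divided differently, with 44.3% of its 1580 UMIs in Myeloid (interval 41.8 to 46.8), 39.6% in Stroma and 11.5% in ILC. The Myeloid part of Csf3 was 12.1, 36.6, 50.2 and 60.3% by library. These shares follow the cells captured, and Stroma itself held 84.7, 84.0, 57.4 and 63.3% of all UMIs in the libraries.

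**Figure D3:**
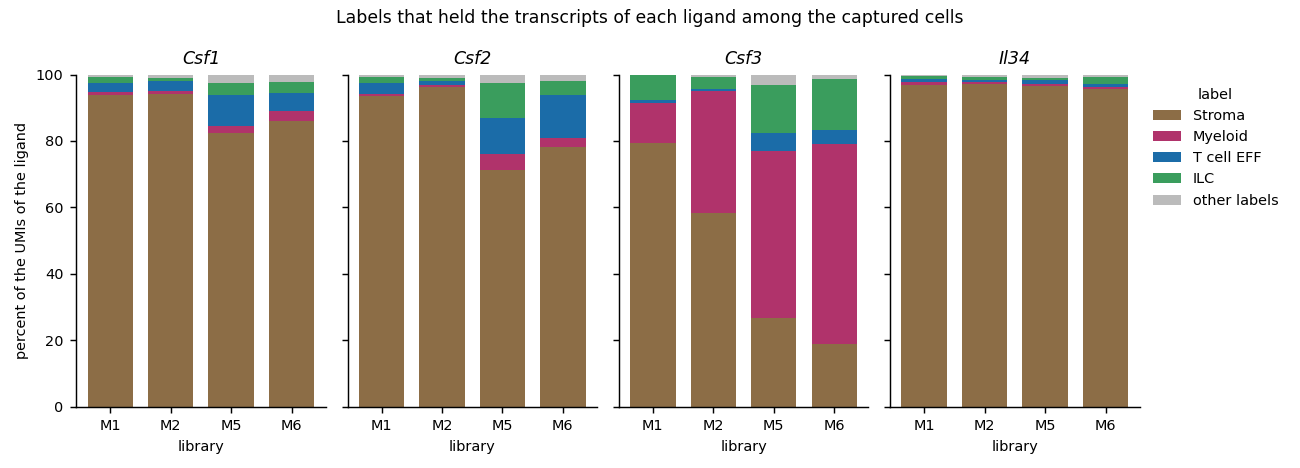
Percent of the UMIs of each ligand (vertical axis) that each cell type label held, as stacked bars with 1 bar per library. Stroma holds 71.3% or more of Csf1, Csf2 and Il34 in every library, and Myeloid from 12.1% to 60.3% of Csf3.

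Il34 was close to a Stroma transcript in these cells. It was at 17.0, 18.8, 15.8 and 15.5 CPM in Stroma. Every library of DC (2.75 to 4.97 CPM), of Myeloid (0.882 to 4.87 CPM) and of T cell EFF (0.906 to 3.28 CPM) was below these. After thinning 3.45% of Stroma cells carried Il34 (interval 3.17 to 3.74), and at most 0.371% of the cells of any other label with over 500 cells. Without thinning the Stroma share was 41.8%. DC, at 0.371% from 2 of 539 cells (interval 0.0450 to 1.33), had a median depth of 9549 UMIs. Il34 and Csf1 showed no pairing within Stroma, where 29.3% of cells with Il34 carried Csf1 (interval 25.5 to 33.4) against 30.4% of cells without. Csf1 was seen in 46.3% of cells with Csf2 (interval 43.5 to 49.2) and 29.02% of those without.

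Within Stroma, the ligands were read in ranges of Col3a1, a fibrillar collagen gene, in thinned cells. These are ranges and not cell types. Thinning left out most UMIs of a typical Stroma cell, so a count of 0 does not mean a cell without Col3a1. With 2 or more Col3a1 UMIs there were 559 cells, with 1 UMI 1240 and with 0 UMIs 13843. Csf1 was at 289.7 CPM in the highest range (interval 282 to 298) and 190.7 at 0. It was higher in the highest range in all 4 libraries, at 275, 298, 287 and 324 CPM against 174, 209, 191 and 193. Csf2 was at 55.4 CPM in the highest range and 66.2 at 0. By library it was at 59.4, 66.2, 8.43 and 54.2 CPM in the highest range and 48.4, 99.6, 40.6 and 63.7 at 0, so M1 went the other way. Il34 was at 20.5 and 16.8 CPM, but in M6 at 11.2 and 15.6. The 13843 cells with no Col3a1 UMI after thinning, out of 15642, held 119907 of the 137588 Csf1 UMIs, 41646 of the 45501 Csf2 UMIs and 10556 of the 11904 Il34 UMIs in Stroma.

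The IL-3 receptor gene Il3ra differed more between these Stroma ranges, with 15.6 CPM in the highest and 0.261 at 0, and was higher in each library. Csf3 was at 5.77 and 0.755 CPM. In the highest range Cd3e, a T cell receptor complex gene, was at 43.9 CPM, against 2.72 with 1 Col3a1 UMI and 448 in T cell EFF. Il3ra was at 22.9 CPM in T cell EFF. The part of T cell transcripts in the Il3ra value was not tested.

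Csf3, which signals through the neutrophil receptor Csf3r, was at 3.89, 15.8, 25.1 and 24.7 CPM in Myeloid. The next label was ILC at 1.06 to 3.96 CPM, below M2, M5 and M6 but overlapping M1 of Myeloid. After thinning 2.79% of Myeloid cells carried Csf3 (interval 2.18 to 3.50), against 0.211% of Stroma cells. Without thinning the share was 6.27%, in 168 of 2680 cells, and 27 of them held 54.4% of the UMIs. Csf3 was at 7.30 CPM in the Myeloid cells with 5 or more C1q UMIs (interval 5.80 to 9.08) and 22.0 CPM in those with 1 or fewer (interval 20.1 to 24.0). The Csf3 level is thus set by few cells.

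Csf1r differed little between libraries in Myeloid, but more in DC. In Myeloid it was at 141, 145, 134 and 141 CPM. DC had 11.2, 10.4, 36.9 and 24.0 CPM, below every Myeloid library, and the pooled ratio was 7.11. After thinning 22.5% of Myeloid cells carried Csf1r (interval 20.8 to 24.1) and 2.78% of DC. In Stroma 0.0895% did, where the level was 0.286 CPM. Without thinning the Myeloid share was 56.0% at a median depth of 8027 UMIs and the Stroma share 1.02%.

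The GM-CSF receptor chains differed in where they were highest. The alpha chain gene Csf2ra was at 77.8, 93.1, 97.2 and 48.0 CPM in Myeloid and 62.0, 80.3, 109 and 48.6 CPM in DC. These ranges overlapped and the pooled levels were 75.2 and 74.6. The shared beta chain gene Csf2rb was at 262, 304, 450 and 397 CPM in DC, and 140, 173, 246 and 242 CPM in Myeloid. DC was above Myeloid in every pair of libraries, by 1.69 times when pooled. In both labels Csf2rb was lowest in M1 and highest in M5. After thinning 41.4% of DC (interval 37.2 to 45.7) and 34.8% of Myeloid cells carried it, compared with 0.153% of Stroma. Of DC cells with Csf2ra, 55.7% also carried Csf2rb (interval 44.1 to 66.9), and of DC cells without, 38.9%. Taken by library, these intervals overlapped in each.

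Csf3r, the G-CSF receptor gene, was at 28.3, 45.9, 58.5 and 66.0 CPM in Myeloid, or 51.9 pooled and 108.5 with each cell weighing the same. No other label with over 50 cells had a pooled level above 8.75 CPM, and DC was at 0 to 6.13 CPM. After thinning 13.4% of Myeloid cells carried Csf3r (interval 12.1 to 14.8) and 0.371% of DC. Unthinned, the share was 35.9% in Myeloid, whose median depth was 8027 UMIs, and 1.62% in DC, whose median depth was 9549. Of Myeloid cells with Csf3r, 49.1% also carried Csf2rb (interval 43.7 to 54.5), and of those without, 32.6%. By library, these intervals overlapped in M1, M2 and M5. Csf3r was seen in 11.01% of Myeloid cells with Csf1r and 14.1% of those without, with overlapping intervals. At 2000 UMIs, 60.1% of Myeloid cells and 49.2% of DC carried at least 1 of the 4 receptor genes, but 4 Myeloid cells of 2547 carried all of them.

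Myeloid cells were then read in ranges of marker counts, which are ranges and not cell types. With 5 or more UMIs of C1qa, C1qb and C1qc together there were 510 cells, with 2 to 4 there were 190 and with 1 or fewer 1847. In the C1q-high range Csf1r was at 169 CPM (interval 162 to 177) and Csf2rb at 95.2 (interval 89.6 to 101). In the C1q-low range Csf1r was at 128 and Csf2rb at 264 CPM. The opposite order of the 2 receptors held in each library. Csf1r was at 190, 179, 153 and 151 CPM in C1q-high and 109, 129, 128 and 138 in C1q-low. Csf2rb was at 75.7, 81.6, 94.6 and 131 in C1q-high and 206, 232, 309 and 277 in C1q-low. The C1q-low range also takes in cells with neutrophil or mast cell transcripts, and the order without them is not given here.

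The Csf3r level was highest in the Myeloid range with most neutrophil transcripts, a range chosen after values had been seen. The part of all Csf3r UMIs that this range held is not given here. In the 219 Myeloid cells with 20 or more UMIs of S100a8, S100a9 and Retnlg together, Csf3r was at 476 CPM (interval 436 to 519). By library it was at 256, 435, 655 and 516. The 151 cells with 5 to 19 such UMIs had 136 CPM, and cells low in C1q, neutrophil and mast cell genes, 1287 in all, had 36.5. The same 219 cells had 424 CPM of Csf2rb, 140 of Csf2ra, 75.4 of Csf1r and 219.8 of Csf1. Their median depth was 3410 UMIs, and after thinning 64.8% carried Csf3r. The Csf1 level in this range was above that of every other Myeloid range examined, which were at 45.5 to 106 CPM.

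The Myeloid label also held 289 cells with 2 or more UMIs of the mast cell genes Cpa3, Cma1, Mcpt4 and Tpsb2, and 33 cells with 1. In the 289 cells Csf1r was at 11.1 CPM, Csf2ra at 6.67 and Csf3r at 5.004. Csf2rb was at 201 CPM (interval 180 to 222), Il3ra at 33.4 and Csf2rb2 at 231. Csf2rb2 is the mouse paralog of Csf2rb and encodes a beta chain that serves the IL-3 receptor only. Mast cells are known to respond to IL-3. Of the UMIs of both beta chain genes, Csf2rb2 had 53.5% in this range (interval 49.9 to 57.0) and between 50% and 55.4% in each library. In the whole Myeloid label it had 27.2%, and in the neutrophil range 12.02% (interval 9.36 to 15.1).

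**Figure D4:**
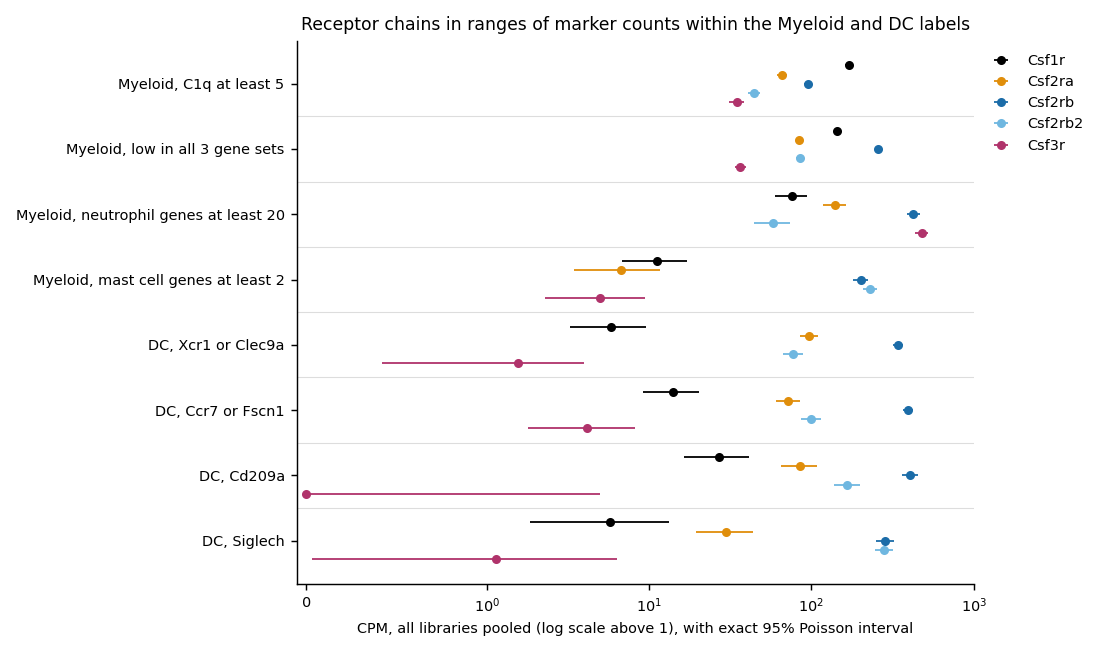
Pooled level of the receptor chains in CPM (horizontal axis, logarithmic above 1) in ranges of marker counts within Myeloid and DC, with exact 95% Poisson intervals. The neutrophil range stands out for Csf3r at 476 CPM, the mast cell range for Csf2rb2 at 231 with Csf1r at 11.1, and the Siglech range of DC for Csf2rb2 at 279.

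DC were read in ranges set by 1 UMI of subset genes in thinned cells, which were chosen after values had been seen. The ranges overlap, as 53 of the cells fell in 2 or more and were counted in each. The 154 cells with Xcr1 or Clec9a, genes of conventional type 1 dendritic cells, had 97.2 CPM of Csf2ra (interval 85.5 to 110) and 341 of Csf2rb. The 90 cells with Siglech, a plasmacytoid dendritic cell gene, had 29.7 CPM of Csf2ra (interval 19.4 to 43.5) and 284 of Csf2rb. Csf2rb2 had 49.5% of both beta chains in the Siglech range (interval 45.0 to 54.0) and 18.4% in the Xcr1 or Clec9a range (interval 16.1 to 20.9). The 142 cells with Ccr7 or Fscn1, genes of migratory dendritic cells, had 394 CPM of Csf2rb, and the 57 cells with Cd209a had 407. Csf1r was at 37.5 CPM in the 153 DC with none of these genes (interval 30.5 to 45.6), compared with 5.71 to 26.9 CPM in the 4 ranges, of which the highest, Cd209a, had an overlapping interval (16.4 to 41.5).

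Csf2rb and Csf2rb2 lie next to each other on chromosome 15 (GRCm38, 78325752 to 78353847 on the plus strand and 78282507 to 78305721 on the minus strand), and their transcripts are 91.5% identical where aligned. The last 500 bases, from which this 3' assay reads, are 85.4% identical with no shared stretch of 50 bases. Reads from further upstream may fit both genes, so values of the pair are uncertain to that extent. Of Csf2rb's 50-base stretches 18.4% also occur in Csf2rb2.

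Levels of the receptors outside Myeloid and DC were set beside those of other myeloid genes. In T cell EFF, Csf1r was at 5.06%, Csf2ra at 8.80%, Csf2rb at 6.60% and Csf3r at 7.44% of the Myeloid level. For the myeloid genes Lyz2, C1qa, C1qb, C1qc, Apoe, S100a8, S100a9, Ms4a7 and Adgre1 this was 5.62% to 8.53%. In Stroma the 4 receptors were at 0.204% to 0.685% and the 9 genes at 0.2004% to 4.18%. By pooled level, Csf2ra was thus above all 9 in T cell EFF, from 348 UMIs. In ILC it was also above them, at 14.5% against 8.35% to 13.6%, from 740 UMIs. Both margins over the next gene were small, at 8.80% against 8.53% and 14.5% against 13.6%, and no interval was taken of them. Csf2ra was not above all 9 in T cell MEM at 18.03% against 7.42% to 23.5% or in NKT at 4.21% against 2.09% to 18.3%. In NK cells Csf2ra was at 8.005%, above the 2.01% to 6.78% of the 9 genes, while Csf1r, Csf2rb and Csf3r were at 1.86% to 3.22%. At 2000 UMIs a receptor gene was seen in 2.48% of T cell EFF cells and 1.99% of NK cells. The receptor levels in ILC were divided by CD3 transcripts, with Csf2rb at 42.8 CPM in the 1397 ILC that carried a CD3 chain and 16.1 in the 3122 that did not, and Csf1r at 23.2 and 7.87. The part of free RNA or doublets in these levels was not tested.

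Csf2ra differed between libraries in the same way in several labels. It was lowest in M6 in Myeloid, DC, ILC, NK cells and T cell EFF. In M6 it was at 0.537, 0.586, 0.470, 0.510 and 0.579 of its level in the other 3 libraries together. Of 10357 genes with enough UMIs in these labels, 1.40% were lowest in M6 in all 5, and 0.0483%, or 5 genes, were at or under 0.6 in all 5. Besides Csf2ra these were Loxl3, Cpe, Rbp2 and Dynap. The partner chain Csf2rb was not low in M6, at 1.19 to 2.10 times the other libraries together. In Myeloid and DC it was highest in M5, at 246 against 242 CPM in M6 and at 450 against 397 CPM. Within the C1q-high range Csf2ra was at 35.6 CPM in M6 and 73.4 to 79.5 elsewhere, and in the C1q-low range at 51.2 and 82.9 to 107. The comparison was chosen after the values had been seen, with a cut of 0.6 just above the largest Csf2ra ratio of 0.586. Csf2ra thus falls under the cut by that choice, and the count does not measure how unusual it is. The part of free RNA or doublets in ILC, NK cells and T cell EFF was not tested, so the labels may not be independent. The treatment of M6 is not known here.

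**Figure D5:**
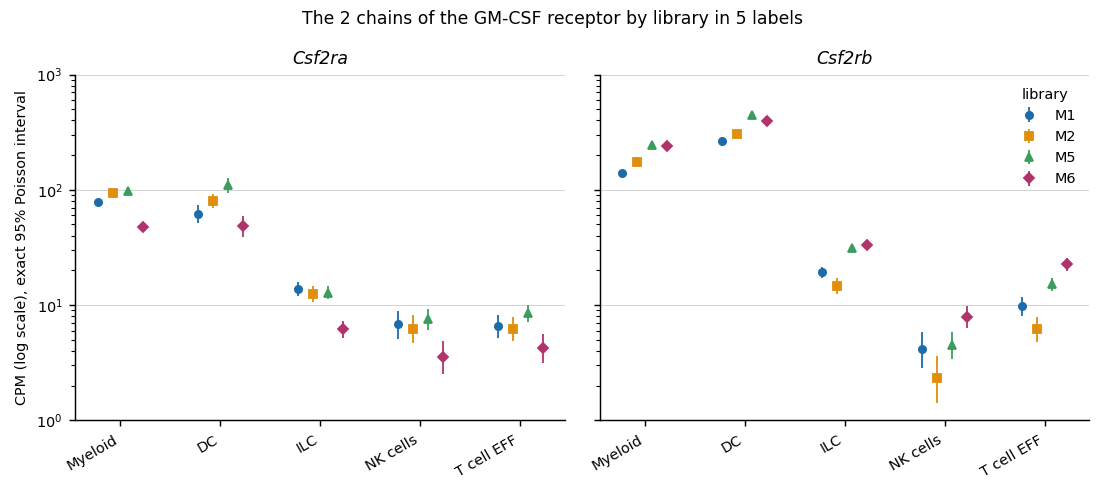
Levels of Csf2ra and Csf2rb in CPM (vertical axis, logarithmic) in 5 labels, 1 point per library with its exact 95% Poisson interval. The M6 point is the lowest of the 4 for Csf2ra in each label, at 48.0 CPM in Myeloid, and is not the lowest for Csf2rb in any.

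The 8 genes were also set against each other in 6 pairs of labels, counting a gene as different where no library of one label overlapped the other. Between Myeloid and DC, Csf3, Csf1r and Csf3r were higher in Myeloid and Csf2rb lower, where 28.8% of 13439 genes did not overlap, 16.2% higher and 12.6% lower in Myeloid. Between Myeloid and Stroma all 8 did not overlap, with Csf1, Csf2 and Il34 lower in Myeloid, where 67.6% of genes did not. Between T cell EFF and T cell MEM, Csf1 and Csf2 were higher and Csf2ra lower in T cell EFF, with 26.9% of genes not overlapping. NK cells were below ILC for Csf1, Csf3, Csf1r, Csf2rb and Csf3r, where 15.2% of genes did not overlap, 10.7% lower and 4.53% higher in NK cells. Against T cell EFF, NK cells were lower for Csf1, Csf2 and Csf1r, with 33.2% of genes not overlapping, 20.4% lower and 12.9% higher. Stroma was above T cell EFF for Csf1 and Il34 and below it for the 4 receptors, with 69.3% of genes not overlapping.

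Genes that act downstream of these receptors were counted in the same pairs. Of 19 signalling genes, 18 were higher in Myeloid than in Stroma, where 31.1% of all genes were, with a median log2 ratio of 2.97 against -0.03 over all genes tested. The exception was Socs1, an inhibitor of cytokine signalling, whose libraries overlapped. The count was not particular to Myeloid, as 17 of the 19 were also lower in Stroma than in T cell EFF, where 33.4% of all genes were, and 3 of the 19 had their highest level in Myeloid. Between Myeloid and DC, 5 of the 19 were higher and 5 lower in Myeloid, against 16.2% and 12.6% of all genes, with a median log2 ratio of 0.18 against 0.02 over all genes. The feedback inhibitor gene Socs3 was at 339 CPM in Myeloid and 140 in DC, and Jak2, which encodes the kinase bound to the beta common chain, was at 79.3 and 132. Among the myeloid regulators reported here, Cebpa, Cebpb and Cebpe were higher in Myeloid than in DC and Irf8 and Irf4 lower, against 16.2% and 12.6% of all genes. The libraries of the others reported, among them Spi1, overlapped. Of 3 genes for proteins that bind AU-rich elements and promote decay, Zfp36, Zfp36l1 and Zfp36l2, all 3 were higher in Myeloid than in Stroma, against 31.1% of all genes, but Zfp36l1 was lower in Myeloid than in DC, against 12.6%. Zfp36l1 and Zfp36l2 were lower in T cell EFF than in T cell MEM, as were 10.8% of all genes. Zfp36 was higher in Stroma than in T cell EFF, 1 of the 3, against 35.9% of all genes. Of 11 lymphocyte products, Ifng and Ccl3 were higher in T cell EFF than in T cell MEM and none was lower, a count near the 16.1% of all genes that were higher in T cell EFF. Spi1, which encodes PU.1, was at 225 CPM in Myeloid, 236 in DC and 0.705 in Stroma. Across 38 pairs of label and library, the Pearson correlations of log2 levels with Spi1 were 0.84 for Csf2ra, 0.84 for Csf2rb, 0.68 for Csf1r and 0.37 for Csf3r.

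The letters GAGGAA, a core bound by PU.1, were looked up on both strands in 300 bases around the RefSeq gene start, in GRCm38.p6. Of 32851 promoters 28.3% held them. Those of Csf2ra, Csf3r and Csf2rb2, each highest in Myeloid or DC, held at least 1 match, as did that of Il3, which was highest in T cell EFF, and those of Csf1 and Csf2 held none. Promoters of Csf3, Il34, Csf1r and Csf2rb were not analysed here. Whether PU.1 binds these matches or acts on these genes was not tested. The promoters of Csf2ra, Csf3r and the paralog Csf2rb2 are printed in the direction of the gene, with GAGGAA or its reverse complement TTCCTC in capitals, to show where the matches lie.

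Csf3r (chr4:126024409-126024708, plus strand): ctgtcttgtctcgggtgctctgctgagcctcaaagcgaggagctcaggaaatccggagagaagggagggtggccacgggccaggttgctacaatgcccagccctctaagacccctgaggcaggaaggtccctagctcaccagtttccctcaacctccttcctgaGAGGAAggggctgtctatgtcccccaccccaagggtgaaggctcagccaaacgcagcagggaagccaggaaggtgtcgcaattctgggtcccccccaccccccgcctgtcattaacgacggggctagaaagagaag

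Csf2ra (chr19:61228369-61228668, minus strand): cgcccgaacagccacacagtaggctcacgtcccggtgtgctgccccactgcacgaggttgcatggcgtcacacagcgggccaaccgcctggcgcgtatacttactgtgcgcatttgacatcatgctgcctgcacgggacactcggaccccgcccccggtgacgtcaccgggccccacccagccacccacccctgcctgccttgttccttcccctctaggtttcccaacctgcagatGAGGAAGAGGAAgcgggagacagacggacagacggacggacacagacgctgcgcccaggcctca

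Csf2rb2 (chr15:78305672-78305971, minus strand): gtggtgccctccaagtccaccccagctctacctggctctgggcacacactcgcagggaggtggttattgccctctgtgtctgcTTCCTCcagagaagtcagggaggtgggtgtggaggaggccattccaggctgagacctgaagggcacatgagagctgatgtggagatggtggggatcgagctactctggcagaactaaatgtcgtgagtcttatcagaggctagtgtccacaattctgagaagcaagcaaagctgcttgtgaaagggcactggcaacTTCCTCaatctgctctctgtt

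In Csf2ra the 2 copies follow each other directly upstream of the start, and in Csf2rb2 both matches are of the reverse complement.

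Other ligands of the beta common family were rare. Il3 had 212 UMIs in 9 T cell EFF cells, 191 of them in 1 cell of M5, so its 4.03 CPM describe that cell. Il5 had 63 UMIs in all labels, of which 40 were in 1 ILC cell of M6. The IL-5 receptor gene Il5ra had 41 UMIs and was highest in B cells, at 24.8 CPM from 11 UMIs in 8 cells (interval 12.4 to 44.4). Il3ra was at 19.5 to 27.8 CPM in NK cells, ILC, T cell EFF, T cell MEM, Myeloid, DC and NKT alike.

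The genes whose levels were most like each member were ranked over the 38 pairs of label and library with at least 20 cells, by Pearson correlation of log2(CPM + 1) among 14210 genes. The pairs share libraries, depth and the labels' makeup, so the values are descriptions, and the gene named can change with the measure. For Csf1 it was Dusp6 (0.91), a phosphatase gene induced by ERK signalling, and for Il34 Arhgap42 (0.94). For Csf2 it was Cchcr1 (0.82), and for Csf3 Mfsd7a (0.90), but Cchcr1 was not among the first 5 by Spearman correlation and Mfsd7a, with 297 UMIs, not with a pseudocount of 10. For Csf1r it was Sirpb1c (0.95), for Csf2ra Cd300c2 (0.96), for Csf2rb its paralog Csf2rb2 (0.97) and for Csf3r the myeloid receptor gene Trem1 (0.92), followed by the neutrophil chemokine receptor gene Cxcr2 (0.92). Among the members, Csf2ra and Csf2rb were the closest pair at 0.92, and Csf1 and Csf2 followed among the ligands at 0.71.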

How the data were processed

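Single-cell 3' libraries of CD45+ bead-enriched TILs were processed by the authors with Cell Ranger 3.0.2 on mm10, and the deposited values are UMI counts of every gene in every cell, with no normalization. Each cell has a library name and the authors' cell type label, and the smallest cell held 1220 UMIs. Counts were summed by label and library and scaled to CPM, and shares of cells were taken after thinning each cell without replacement to 2000 UMIs, which left out 696 cells. Intervals are widest for labels with few cells, such as DC, and for rare ligands.

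No doublet caller was run and free RNA was not removed. The 4 libraries are of unknown treatment and were not taken as replicates, so each value or the range is given, without a test. The planned count test between treatments was therefore not run. Label pairs were compared over genes with at least 20 UMIs. Named genes are the 8 members, pathway lists and the 5 genes most like each member, of which the first or the first 2 are named. One gene of the list of myeloid regulators is not reported here. Members and lists were chosen with earlier results of these data known. Python 3.11.15, numpy 2.4.6, scipy 1.17.1, pandas 2.3.3, matplotlib 3.10.9 and Biopython 1.88 were used, and the scripts were tested on simulated data. Gene positions and 3' UTRs are from GENCODE M21 and promoters from RefSeq.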

Additional observations from a re-analysis of the deposited data

How the results depend on the processing

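Levels, shares and ligand sources were recomputed without each library, without cells over 10% mitochondrial UMIs, without cells with macrophage transcripts outside Myeloid and DC, without the 1 cell with the most UMIs of the gene, with each cell weighing the same and at other depths. The label in which each gene was highest was the same with all 12 labels. With each cell weighing the same, Csf1 in Stroma was at 241.9 CPM and Csf2 at 64.62, and in Myeloid Csf3 was at 24.67, Csf1r at 144.3, Csf2ra at 98.5 and Csf3r at 108.5 CPM. Shares of cells with a UMI rose with depth, in the order 1000 UMIs, 4000 UMIs and no thinning. In Stroma they were 18.45, 46.8 and 87.4% for Csf1, 4.481, 11.26 and 26.13% for Csf2 and 1.721, 6.505 and 41.77% for Il34. In Myeloid they were 1.642, 3.929 and 6.269% for Csf3, 11.72, 40.6 and 56.04% for Csf1r, 8.209, 27.5 and 48.47% for Csf2ra and 7.873, 17.08 and 35.93% for Csf3r. For Csf2rb in DC they were 25.72, 63.59 and 72.84%. Without cells over 10% mitochondrial UMIs, Csf1 in Stroma was at 195.7 CPM and Stroma held 91.25% of Csf1 UMIs, and without cells with macrophage transcripts 91.21%. Without 1 library at a time, the levels of Csf1 in Stroma ranged from 189.3 to 209.0 CPM, of Csf2 from 50.39 to 76.00 (without M2 and without M1), and of Il34 from 16.43 to 17.52. In Myeloid, Csf3 ranged from 15.15 to 22.60 CPM (without M6 and without M1), Csf2ra from 68.25 to 89.39 and Csf3r from 44.49 to 58.66, and in DC, Csf2rb from 319.7 to 376.1. The thinned shares ranged from 28.91 to 31.63% for Csf1 and from 6.091 to 8.659% for Csf2 in Stroma, and in Myeloid from 2.059 to 3.169% for Csf3, 14.88 to 19.34% for Csf2ra and 11.44 to 14.77% for Csf3r. Stroma held 89.23 to 92.35% of Csf1 UMIs and 84.69 to 92.38% of Csf2 UMIs, and Myeloid 36.14 to 50.99% of Csf3 UMIs. No paired analysis was possible because the libraries carry no replicate number or treatment that the sample labels share. The treatment comparison and its alternatives were not run for the same reason.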
